A study of Homo sapiens with 6 samples.

Results

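The calcineurin, RCAN and NFAT genes were followed by symbol in RNA sequencing of KhES-1, an established line of human embryonic stem cells. They comprised 3 genes for calcineurin subunits (PPP3CA, PPP3CB and PPP3R1), 3 for regulators of calcineurin (RCAN1, RCAN2 and RCAN3) and 4 for NFAT transcription factors (NFATC1, NFATC2, NFATC3 and NFATC4), and all 10 had a row among the 23346 genes of the table. In RefSeq they lie on chromosomes 4 (PPP3CA), 10 (PPP3CB), 2 (PPP3R1), 21 (RCAN1), 6 (RCAN2), 1 (RCAN3), 18 (NFATC1), 20 (NFATC2), 16 (NFATC3) and 14 (NFATC4). The cells grew in AKIT medium or, as the control, in Essential 8 (E8) medium, in both cases on a coat of laminin fragment at 0.5 µg per square cm. AKIT is known as a medium without added growth factors that holds the GSK3 inhibitor 1-azakenpaullone, the DYRK inhibitor ID-8 and the calcineurin inhibitor tacrolimus, whereas E8 is supplemented with FGF2 and TGF-beta. The labels give no drug doses and do not say whether replicates were separate cultures. A p-value here therefore sets a difference against the spread between libraries, which may be technical. Of the 6 samples of the series, 3 AKIT libraries and E8 replicates 1 and 2 were used. E8 replicate 3 was not analysed here.

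Calcineurin is a phosphatase switched on by calcium and calmodulin. It consists of a catalytic A subunit and a calcium-binding B subunit, and it removes phosphates from NFAT proteins, which then move into the nucleus. RCAN proteins bind calcineurin and can hold it back, and RCAN1 is itself known as a gene induced by NFAT. Kinases of the GSK3, DYRK and casein kinase 1 families put the phosphates back, so AKIT contains inhibitors of both the phosphatase and some of the kinases that act on NFAT. Tacrolimus, bound to an immunophilin, acts on the calcineurin protein, and the RNA levels below do not measure calcineurin activity.

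Levels are in RPKM, read counts divided by gene length and by the depth of the library, which allows genes of different length to be compared. The value after ± is the SD for a mean (AKIT n = 3, E8 n = 2) and the standard error of limma's moderated test for a log2 difference. Differences were taken on log2(RPKM + 1), AKIT minus E8, so that changes of low genes come out smaller than their ratio. "Rose" and "fell" are used of genes whose Benjamini-Hochberg adjusted p over all 14776 genes tested, those with a mean of at least 0.5 RPKM, was under 0.05.

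The libraries held 16242864 to 23263095 reads. The first principal component, with 66.5% of the variance, set AKIT apart from E8, which lay at 33.8 and 34.0. On it AKIT replicate 2 lay at -15.2, nearer to AKIT replicates 1 and 3 (-26.4 and -26.2) than to E8. On the second component (17.2%) AKIT replicate 2 lay at -27.3, away from AKIT replicates 1 and 3 (12.7 and 9.6) and from E8 (2.9 and 2.1). All 8 markers of pluripotent cells were above 1 RPKM in every library and summed to 2585 to 2677 RPKM in AKIT and 2903 to 2914 in E8. Of these, SOX2 fell (254 ± 45.3 RPKM in AKIT and 435 ± 21.8 in E8, limma adjusted p = 0.0162), and the other 7 did not pass. The call of SOX2 ended with either E8 library or AKIT replicate 3 left out. Of the 5 lymphocyte markers, PTPRC and CD2 were at 0 in all 5 libraries and the sum stayed at or below 0.856 RPKM. Fibroblast markers summed to 203 to 264 RPKM in AKIT and 342 to 343 in E8. Most of this sum was THY1 (168 ± 30.4 RPKM in AKIT and 274 ± 1.21 in E8), so the sum says little of the other markers. THY1 and COL1A1, the most abundant of the list, fell, and the other 4 genes tested did not pass. Both calls ended with either E8 library or AKIT replicate 3 left out. LUM had 5.81 RPKM in AKIT replicate 1, 1.83 in replicate 2 and 0.0244 in replicate 3, and LUM and DCN were listed at 0 in both E8 libraries. Higher AKIT values were also listed for COL3A1 (5.63, 2.15 and 0.141 RPKM, against 0.0413 and 0 in E8). Muscle markers summed to 13.7 to 17.2 RPKM in AKIT and 6.78 to 8.48 in E8, mostly ACTC1, with MYH6 and MYH7 at or below 0.0499. ACTC1 rose (12.9 ± 2.11 RPKM in AKIT and 4.50 ± 0.469 in E8, limma adjusted p = 0.00251), and no alternative fit ended its call. TNNT2, which was not tested, went the other way (0.200 ± 0.0927 RPKM in AKIT and 0.798 ± 0.166 in E8), and DES did not pass. Neural markers summed to 4.32 to 8.53 RPKM in AKIT and 6.25 to 6.85 in E8, and endothelial markers to 1.29 to 2.35 in AKIT and 2.93 to 3.13 in E8. The endothelial sum was mostly TEK, which did not pass. The part of these markers in the results below was not tested.

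Among the 10 genes, RCAN2, PPP3CA and NFATC1 fell in AKIT. RCAN2 was 3.61-fold lower by the ratio of mean RPKM, NFATC1 1.93-fold and PPP3CA 1.79-fold. None rose by limma's adjusted p (0 of 9 tested, with 0 higher at an unadjusted p under 0.05 and 0 by voom on recovered reads). Over all genes 20.0% were called, 11.7% as lower and 8.22% as higher in AKIT. The 9 genes tested were too few for 3 falls to be set apart from that background. With either E8 library left out RCAN2 alone of the 10 genes fell, and without AKIT replicate 2 the genes that fell were 4, NFATC4 being added. Among all genes tested, 1736 fell with all libraries and 2619 without AKIT replicate 2. The median log2 difference of the 9 genes was -0.23, beside -0.01 over all genes tested. AKIT and E8 libraries did not overlap in 7 of the 9, and 54.4% of all genes tested were separated in that way. In 5 of the 7 AKIT was the lower group (28.6% of all genes) and in 2 the higher (25.8% of all genes). In bulk RNA, fewer cells that express a gene and less RNA of it per cell cannot be told apart.

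**Figure D1:**
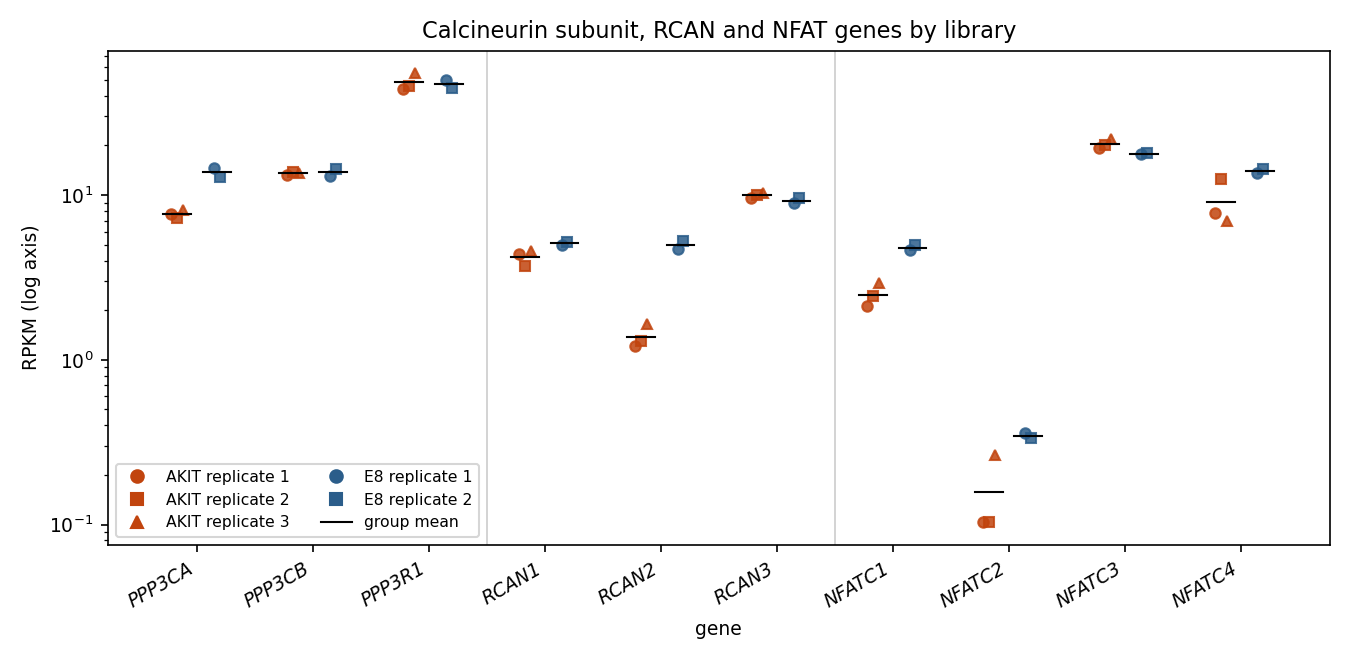
RPKM of the 10 genes (log axis) in each library, AKIT in red and E8 in blue, with symbols for replicates and a line at each group mean. RCAN2, NFATC1 and PPP3CA sit lower in every AKIT library than in both E8 libraries, while PPP3R1 and PPP3CB overlap, and NFATC4 of AKIT replicate 2 lies near the E8 values.

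Of the catalytic subunit genes, PPP3CA, which encodes the alpha isoform, had 7.72, 7.28 and 8.07 RPKM in the AKIT libraries (replicates 1 to 3, here and below), against 14.5 and 12.9 RPKM in E8 (replicates 1 and 2). All AKIT libraries were therefore below both E8 libraries, and PPP3CA fell by 0.76 ± 0.11 on the log2 scale (95% interval -1.02 to -0.51, limma adjusted p = 0.00538). The values rested on 732 to 839 reads per AKIT library and 983 to 1200 per E8 library. PPP3CB, the gene of the beta isoform, was at 13.3, 13.8 and 13.6 RPKM in AKIT and 13.1 and 14.4 RPKM in E8. Its groups overlapped, with a log2 difference of -0.02 and a 95% interval of -0.25 to 0.21 (limma adjusted p = 0.907). The regulatory subunit gene PPP3R1, which encodes the widely expressed B subunit, was the most abundant of the 10 genes in both media. It stood at 44.1, 45.8 and 54.9 RPKM in AKIT and at 49.7 and 44.7 RPKM in E8, again overlapping (log2 difference 0.03, 95% interval -0.26 to 0.32, limma adjusted p = 0.891). The call of PPP3CA ended with 1 E8 library, at a limma adjusted p of 0.0873 without E8 replicate 1 and 0.0562 without E8 replicate 2.

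With PPP3CA lower and PPP3CB overlapping, the balance of these catalytic subunit genes differed between media. Other catalytic subunit genes were not used here. PPP3CA made up 36.8%, 34.5% and 37.3% of the summed RPKM of PPP3CA and PPP3CB in AKIT, against 52.6% and 47.3% in E8. The sum itself was 21.2 ± 0.361 RPKM in AKIT and 27.5 ± 0.167 RPKM in E8. Relative to that sum, PPP3R1 was 2.10, 2.17 and 2.54 times as high in AKIT and 1.80 and 1.63 times in E8. None of these ratios was tested, since they are built from the genes just described.

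RCAN2 had the largest difference of the 10 genes and the 175th largest fall of the 14776 genes tested. This regulator is known for expression in brain, heart and muscle. It was at 1.21, 1.29 and 1.65 RPKM in AKIT, against 4.72 and 5.27 RPKM in E8, with a wide gap between the groups. On the log2 scale it fell by 1.33 ± 0.14 (95% interval -1.66 to -1.01, limma adjusted p = 0.00207). The values rested on 112 to 128 reads per AKIT library and 333 to 342 per E8 library. The call held in all 14 alternative fits, with a highest adjusted p of 0.0372.

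RCAN1, the NFAT-induced member of the family, was at 4.36, 3.69 and 4.57 RPKM in AKIT and at 5.001 and 5.16 RPKM in E8. Each AKIT library was below both E8 libraries, but the gap between the groups was smaller than the range of the AKIT libraries and the gene did not pass (log2 difference -0.23 ± 0.12, 95% interval -0.52 to 0.07, limma adjusted p = 0.236). RCAN3 was at 9.62, 10.03 and 10.3 RPKM in AKIT and at 8.99 and 9.53 RPKM in E8. It was the most abundant of the family in both media and did not pass either (log2 difference 0.10 ± 0.10, limma adjusted p = 0.526). A row for its antisense gene RCAN3AS held 2 to 6 reads per library, and whether the authors' counting used strand is not given in the sources used here. RCAN2 made up 7.94%, 8.60% and 10.02% of the summed RCAN level in AKIT and 25.2% and 26.4% in E8. RCAN3 made up 64.1% ± 2.38 in AKIT and 47.9% ± 0.215 in E8, while the shares of RCAN1 overlapped (27.0% ± 2.15 in AKIT and 26.3% ± 0.617 in E8). Summed over the family, the level was 15.6 ± 0.801 RPKM in AKIT and 19.3 ± 0.883 RPKM in E8. Set against the summed level of PPP3CA and PPP3CB it was 0.724, 0.711 and 0.761 in AKIT and 0.678 and 0.729 in E8, which overlap.

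**Figure D2:**
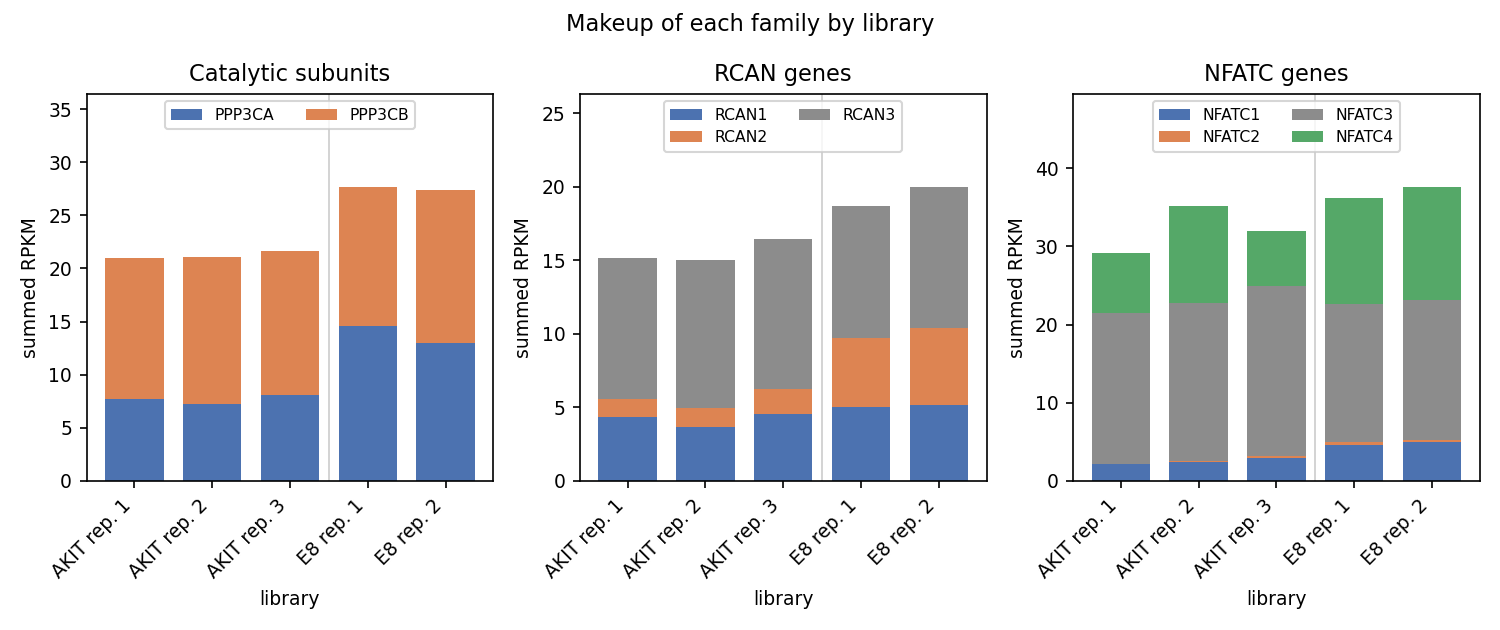
Stacked RPKM of the catalytic subunit, RCAN and NFATC genes in each of the 5 libraries, AKIT left of the vertical line and E8 right of it. The lower sums in AKIT come with smaller blocks of PPP3CA, of RCAN2 and, in the NFATC panel, of NFATC1 and NFATC4. The blocks of NFATC3 are somewhat taller in AKIT and those of RCAN1 somewhat shorter, while those of PPP3CB and RCAN3 differ little in height.

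RCAN1 is transcribed from several starts, and the start inside the gene is the one known to respond to calcineurin and NFAT. The deposited table has 1 value per gene, so reads from the different starts were not separated. To show the letters in question, the 250 bases before RefSeq starts (GRCh38.p14, another build than that of the deposited values) were searched for GGAAA, the core of NFAT sites, and for TTTCC, the same motif on the other strand. At least 1 match lay in 55.6% of all 35116 windows of this length and in 9 of the 21 windows of the 8 members that had one (42.9%). PPP3CA and PPP3CB had no window and were not searched. The first start of RCAN1 had no match in this window. Start 4 of 6, 88291 bases further on and in an intron of the longer GENCODE transcripts, had 4, a number reached by 1.9% of all windows. Shown here are these RCAN1 windows and, for the genes that fell and had a match, the second RCAN2 start (2 matches, reached by 22.4% of windows) and the first NFATC1 start (1 match), each 5′ to 3′ along the gene with matches in capitals.
RCAN1 first start, chr21:34615114-34615363, minus strand: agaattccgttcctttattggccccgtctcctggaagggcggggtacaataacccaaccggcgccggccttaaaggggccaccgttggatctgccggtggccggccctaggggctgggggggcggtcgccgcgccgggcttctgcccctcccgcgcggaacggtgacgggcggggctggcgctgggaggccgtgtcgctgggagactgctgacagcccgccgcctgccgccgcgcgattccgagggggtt
RCAN1 start 4, chr21:34526823-34527072, minus strand: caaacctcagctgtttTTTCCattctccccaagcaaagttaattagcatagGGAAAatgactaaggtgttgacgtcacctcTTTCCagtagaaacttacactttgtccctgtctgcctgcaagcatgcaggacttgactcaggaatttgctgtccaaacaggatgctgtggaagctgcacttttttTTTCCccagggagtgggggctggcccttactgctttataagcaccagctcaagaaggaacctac
RCAN2 second start, chr6:46491450-46491699, minus strand: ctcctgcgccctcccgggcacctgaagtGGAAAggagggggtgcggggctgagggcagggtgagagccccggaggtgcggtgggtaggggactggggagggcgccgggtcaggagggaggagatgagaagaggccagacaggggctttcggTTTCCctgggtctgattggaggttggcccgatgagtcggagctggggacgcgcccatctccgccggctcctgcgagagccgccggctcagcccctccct
NFATC1 first start, chr18:79395680-79395929, plus strand: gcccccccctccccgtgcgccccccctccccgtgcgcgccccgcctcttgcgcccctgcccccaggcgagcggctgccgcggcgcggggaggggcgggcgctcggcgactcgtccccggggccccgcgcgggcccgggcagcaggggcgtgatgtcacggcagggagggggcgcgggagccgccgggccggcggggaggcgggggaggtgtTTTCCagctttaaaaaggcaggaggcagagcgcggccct
A match is a run of letters and was not shown to be a site in these cells. The other 5 starts of RCAN1 and starts 1 and 3 of RCAN2 had no match in this window. The second NFATC1 start also had 1 match and is not shown.

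Of the NFAT genes, NFATC1, which encodes a factor best known from lymphocytes, osteoclasts and heart valves, was at 2.12, 2.42 and 2.91 RPKM in AKIT, against 4.64 and 4.94 RPKM in E8. The groups were well apart, and NFATC1 fell by 0.74 ± 0.14 on the log2 scale (95% interval -1.07 to -0.41, limma adjusted p = 0.0136). With 1 E8 library the call ended, at a limma adjusted p of 0.110 without E8 replicate 1 and 0.136 without E8 replicate 2. NFATC4, a factor known from neurons and heart, was at 7.77, 12.5 and 6.93 RPKM in AKIT and at 13.6 and 14.4 RPKM in E8. For this gene AKIT replicate 2 was far above the other AKIT libraries and close to E8. NFATC4 did not pass with all libraries (log2 difference -0.61 ± 0.22, limma adjusted p = 0.0934). With AKIT replicate 2 left out, falls over all genes went from 1736 to 2619, and NFATC4 passed at a difference of -0.85 (limma adjusted p = 0.00273). It also passed with array weights (limma adjusted p = 0.00788), where 2740 genes fell. Over all 14 alternatives its adjusted p ranged from 0.00273 to 0.344.

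NFATC3, expressed in many tissues, was the most abundant NFAT gene in both media, at 19.2, 20.2 and 21.8 RPKM in AKIT and 17.6 and 17.9 RPKM in E8. Its AKIT libraries were all above E8, by less than the test required (log2 difference 0.19 ± 0.10, 95% interval -0.04 to 0.42, limma adjusted p = 0.217). NFATC2, the main NFAT of resting T cells, was close to the limit of detection and was not tested, with a mean of 0.232 RPKM over the libraries. It had 0.104, 0.103 and 0.264 RPKM in AKIT, from 8, 8 and 17 reads, against 0.358 and 0.333 RPKM in E8, from 21 and 18 reads. The exact 95% Poisson intervals, which cover counting error only, were 0.0447 to 0.204 RPKM in AKIT replicates 1 and 2, below both E8 values, and 0.154 to 0.422 RPKM in AKIT replicate 3, which held both. In E8 they were 0.221 to 0.547 and 0.198 to 0.527 RPKM. Without the filter on low values NFATC2 did not pass (log2 difference -0.22 ± 0.08, limma adjusted p = 0.123).

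NFATC3 supplied 65.8%, 57.4% and 68.4% of the summed level of the 4 NFATC genes in AKIT and 48.7% and 47.7% in E8. The share of NFATC4 was 26.6%, 35.4% and 21.7% in AKIT and 37.5% and 38.3% in E8, with AKIT replicate 2 again nearest to E8. NFATC1 supplied 7.26%, 6.89% and 9.11% in AKIT and 12.8% and 13.2% in E8. The sum was 32.1 ± 2.98 RPKM in AKIT and 36.9 ± 0.914 RPKM in E8, and AKIT replicate 2, at 35.2 RPKM, was close to the lower E8 library, at 36.3 RPKM.

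**Figure D3:**
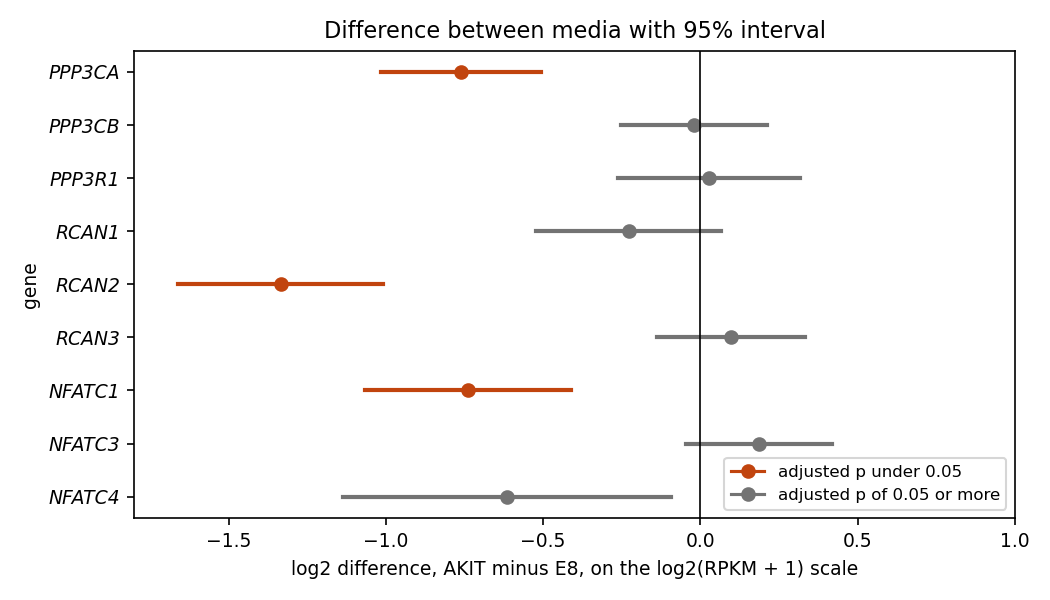
Log2 difference of each of the 9 genes tested, AKIT minus E8 of log2(RPKM + 1), as points with 95% intervals from limma. RCAN2 at -1.33, PPP3CA at -0.76 and NFATC1 at -0.74 passed an adjusted p of 0.05, while the interval of NFATC4 is the widest and those of PPP3CB, PPP3R1, RCAN1, RCAN3 and NFATC3 span 0.

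The order of levels differed between media in its middle part. PPP3R1 and NFATC3 were the highest of the 10 genes in AKIT and in E8, and NFATC2 was the lowest. In AKIT the order went on with PPP3CB, RCAN3, NFATC4, PPP3CA, RCAN1, NFATC1 and RCAN2. There the library ranges of RCAN3 and NFATC4 overlapped, as did those of NFATC4 and PPP3CA, and no other neighbours did. In E8 it went on with NFATC4, PPP3CB, PPP3CA, RCAN3, RCAN1, RCAN2 and NFATC1. The ranges of NFATC4, PPP3CB and PPP3CA overlapped each other from neighbour to neighbour, and so did those of RCAN1, RCAN2 and NFATC1. RCAN2, overlapping with RCAN1 in E8, was thus the ninth gene in AKIT, with 1.38 ± 0.237 RPKM beside 4.21 ± 0.459 RPKM of RCAN1.

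The spread between replicates was compared with what counting alone gives, as chi-square per degree of freedom on the reads (near 1 for counting error only). RCAN3 was at 0.683 among AKIT libraries and 0.806 among E8 libraries, and PPP3CB at 0.438 in AKIT and 3.56 in E8. NFATC4 stood out with 130.0 among AKIT libraries, against 2.09 among E8 libraries. PPP3R1, with 2185 to 3211 reads in each library, had 43.6 in AKIT and 13.4 in E8. For the 3 genes that fell the values were 2.03 in AKIT and 7.27 in E8 for PPP3CA, 3.38 and 2.05 for RCAN2 in AKIT and E8, and 7.75 and 0.907 for NFATC1 in AKIT and E8.

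The genes nearest in pattern were found by the root mean square difference of log2(RPKM + 1), centred on each gene's mean, over the 5 libraries and 14775 other genes. Nearest to RCAN2 were C1R, a complement protease (0.0473), EMID2, a collagen-like gene (0.0733), and GLIPR2 (0.0748), each of which fell. Nearest to PPP3CA were TRIM8, a RING finger gene (0.040), PCDH20, a protocadherin (0.0434), and SPHK2, a sphingosine kinase (0.0436), which also fell. Nearest to RCAN1 were METTL23 (0.0093), NINJ1 (0.0098) and HNRPLL (0.0102), none of which passed. These genes were chosen on the same 5 libraries, so whether they fell follows from the choice and is not a separate result. The match also depends on the pseudocount of 1, as for PCDH20 with 0.466 RPKM in AKIT and 1.36 RPKM in E8.

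The wider pathway was described with 57 genes in 6 lists, all of which had a row, CHP1 under its older symbol CHP. Of the 43 genes tested, 3 rose and 9 fell by limma's adjusted p, with a median log2 difference of -0.09. Over all genes tested 8.22% rose and 11.7% fell (20.0% called). The lists below held at most 13 tested genes each, too few for their counts to be set apart from that background. All 12 calls ended with either E8 library left out, a change under which the calls over all genes also went down to 143 higher and 254 lower (E8 replicate 2 alone) or 142 higher and 250 lower (E8 replicate 1 alone). Leaving out AKIT replicate 3 gave 1 pathway gene that rose and 6 that fell. Without the filter on low values the calls of ITPR2, ATP2B1, CSNK1D and EGR2 ended.

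Of 13 tested genes for calcium entry, release and calmodulin, 2 fell and 1 rose (11.7% and 8.22% of all genes tested). ORAI3, a subunit of store-operated calcium channels, was at 8.81, 6.97 and 8.22 RPKM in AKIT, against 12.6 and 13.2 RPKM in E8 (log2 difference -0.63 ± 0.12, limma adjusted p = 0.0154). ITPR2, a receptor that releases calcium from the endoplasmic reticulum, fell to 3.30 ± 0.286 RPKM in AKIT, against 5.19 ± 0.459 RPKM in E8. ATP2B1, a calcium pump of the plasma membrane, rose to 10.6 ± 1.13 RPKM in AKIT, against 7.58 ± 0.311 RPKM in E8 (limma adjusted p = 0.0456). The other 10 genes tested, among them STIM1 and ORAI1, did not pass, and the median of the list was -0.02. The calls of ORAI3, ITPR2 and ATP2B1 all ended with either E8 library left out, that of ITPR2 also without AKIT replicate 3, and that of ATP2B1 also without AKIT replicate 1 or 3.

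Among 10 tested genes for inhibitors, anchors and immunophilins of calcineurin, 2 fell and 2 rose (11.7% and 8.22% of all genes tested). The median was -0.12. CHP2, a homologue of the calcineurin B subunit, was at 5.73, 4.72 and 4.49 RPKM in AKIT, against 9.57 and 10.9 RPKM in E8 (log2 difference -0.91 ± 0.13, limma adjusted p = 0.00601). The Homer scaffold genes moved apart, in that HOMER3 fell (-0.91 ± 0.14, limma adjusted p = 0.00812) and HOMER2 rose (0.67 ± 0.11, limma adjusted p = 0.00961). In T cells, HOMER2 and HOMER3 proteins are known to compete with calcineurin for NFAT. HOMER2 was at 11.2, 10.5 and 11.7 RPKM in AKIT and 7.11 and 6.15 RPKM in E8, and HOMER3 at 2.84, 3.88 and 3.37 RPKM in AKIT and 7.76 and 6.60 RPKM in E8. In both genes the groups were apart, in opposite directions. FKBP1A, which encodes the protein that tacrolimus binds and is named here after its values were seen, was the other gene that rose, at 141 ± 6.67 RPKM in AKIT and 105.1 ± 1.23 RPKM in E8 (limma adjusted p = 0.0228). All 4 calls ended with either E8 library left out, and that of FKBP1A also without AKIT replicate 3.

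**Figure D4:**
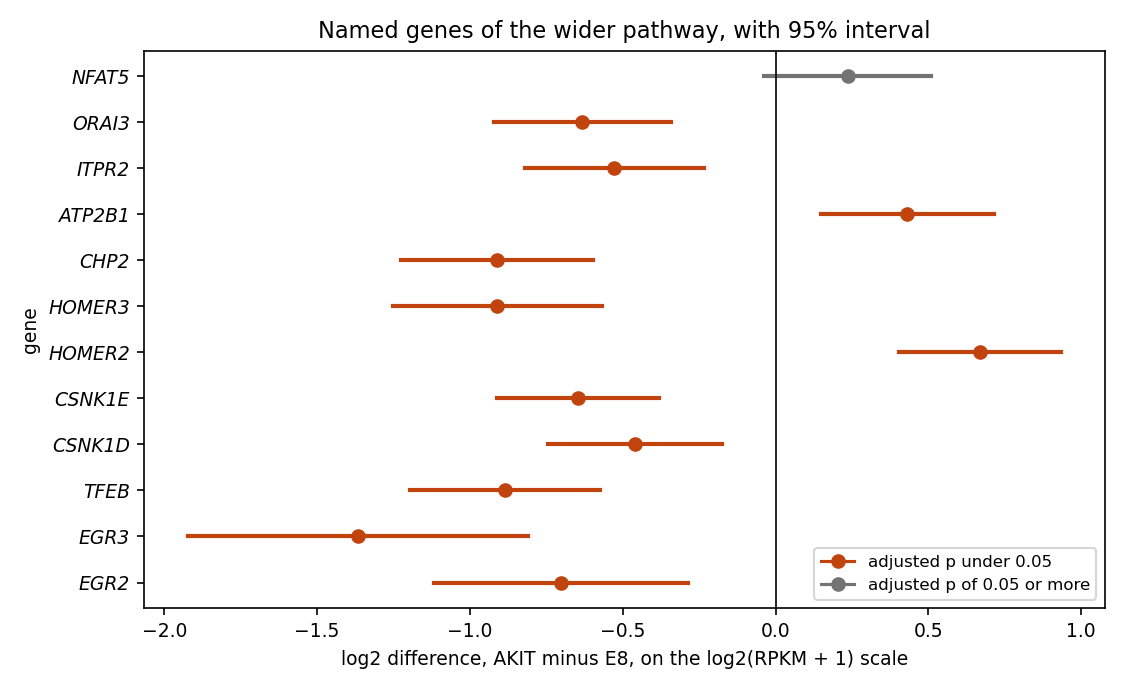
Difference of log2(RPKM + 1), AKIT minus E8, of the 12 pathway genes named by rule, as points with 95% intervals from limma. HOMER2 at 0.67 and ATP2B1 at 0.43 lie above 0 and the 9 genes that fell below it, with EGR3 at -1.37 the lowest, while NFAT5 at 0.24 did not pass.

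Of 7 tested kinases known to phosphorylate NFAT, 2 fell (11.7% of all genes tested), and the median was -0.04. None rose (0 by limma, 0 higher at an unadjusted p under 0.05 and 0 by voom), beside 8.22% of all genes tested. The casein kinase 1 genes CSNK1E (55.1 ± 5.94 RPKM in AKIT and 86.5 ± 1.89 RPKM in E8, limma adjusted p = 0.0107) and CSNK1D (49.2 ± 6.35 RPKM in AKIT and 67.7 ± 0.765 RPKM in E8, limma adjusted p = 0.0390) fell. Neither GSK3A nor GSK3B, and neither DYRK1A nor DYRK2, passed, nor did CSNK1A1. With either E8 library left out both calls ended, and that of CSNK1D also without AKIT replicate 1 or 3.

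Of 9 tested calcineurin substrates other than NFAT, none rose (0 by limma, 0 higher at an unadjusted p under 0.05 and 0 by voom). The 1 that fell (11.7% of all genes tested) was TFEB, a transcription factor of lysosomal genes. It was at 1.01, 0.784 and 0.982 RPKM in AKIT, against 2.66 and 2.44 RPKM in E8 (log2 difference -0.89 ± 0.13, limma adjusted p = 0.00639). Coactivators of CREB (CRTC1 to CRTC3) and the MEF2 factors MEF2A and MEF2D did not pass, and the call of TFEB ended with either E8 library left out. MEF2D and DNM1 of this list passed, as lower in AKIT, without AKIT replicate 2 (limma adjusted p = 0.0113 and 0.014) and with array weights. NFAT5, the relative of NFAT that is not controlled by calcineurin, was at 9.84, 11.9 and 11.3 RPKM in AKIT and 9.42 and 8.95 RPKM in E8 (log2 difference 0.24 ± 0.12, limma adjusted p = 0.191). PPP3R2, a B subunit gene known from testis, was listed at 0 in all libraries. By counting error alone, 0 reads still allow an expected count of up to about 3 in each.

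Of 12 genes known as NFAT targets in immune cells, 9 were not tested, and none of these exceeded 0.249 RPKM in any library. IL2, IL4, CSF2, IFNG and FASLG were listed at 0 in all 5 libraries. Of the 3 tested, EGR2 and EGR3, zinc finger factors that also respond to ERK signalling, fell, and NR4A1 did not pass. Over all genes tested 11.7% fell. EGR3 was at 0.172, 0.783 and 0.114 RPKM in AKIT, against 2.05 and 2.83 RPKM in E8 (log2 difference -1.37 ± 0.23, limma adjusted p = 0.0105). EGR2 was at 1.49, 2.29 and 1.31 RPKM in AKIT, against 3.35 and 3.32 RPKM in E8 (log2 difference -0.70 ± 0.18, limma adjusted p = 0.0342). In both genes AKIT replicate 2 was the highest of the AKIT libraries and the nearest to E8, as for NFATC4. Both calls ended with either E8 library left out, and that of EGR2 also without AKIT replicate 1 or 3.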

How the data were processed

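The authors deposited RPKM values, normalized for length and depth, for 23346 genes. Builds hg19 and GRCh37 come from the submitters' processing notes. Aligner, counting and strand use: not given in the sources used here. Columns were matched to samples by title, with 0 value columns unused.

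RPKM steps gave back the library totals (23253216, 23263095 and 19398694 reads in AKIT, 17657634 and 16242864 in E8) and the smallest whole reads per gene, for 100% of 19892 genes above 0 within 0.02 reads. A length of 1 kb at 1 read corresponds to 0.043 to 0.0616 RPKM.

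Media were compared with limma 3.58.1 in R 4.3.3, mean-variance trend on, two-sided, on log2 of RPKM with pseudocount 1. The filter (mean RPKM 0.5 or more) left 14776 genes, over which p-values were adjusted (Benjamini-Hochberg). There was no covariate. The 14 alternatives changed the pseudocount (0.1, 0.5), the filter (none, 2 RPKM) or the scaling (median of ratios, quantile), used array weights, a replicate block or voom on recovered reads (1239 rose, 1897 fell), or left out a library. A lone E8 library is assumed to vary like AKIT.

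Named were all members, per pathway list up to 3 called genes by size of change (else the 2 of smallest p), and the 3 nearest genes of RCAN1, RCAN2 and PPP3CA. Members and lists were chosen with earlier results of these data known. RefSeq promoter windows (GRCh38.p14) matched 8 of 10 members by symbol, and introns are from GENCODE.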

Additional observations from a re-analysis of the deposited data

How the results depend on the processing

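Over all genes, the counts of 1214 higher and 1736 lower in AKIT moved with array weights (2269 and 2740) and with a replicate block (492 and 824). With a library left out they ranged from 142 to 2132 higher and from 250 to 2619 lower. Members that fell numbered 1 to 4 with a library left out, RCAN2 being the 1. In the pathway lists 1 gene rose and 5 fell with the replicate block, and 0 to 3 rose and 0 to 11 fell with a library left out. The log2 differences of the members with values near 0 changed sign. That of PPP3CB went to 0.0017 with quantile normalization and lay between -0.0857 and 0.0468 with a library left out. That of PPP3R1 went to -0.0003 with quantile normalization and lay between -0.0658 and 0.1031 with a library left out. The replicate block gave PPP3R1 the same -0.0658 as leaving out AKIT replicate 3.

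Replicate numbers are shared between media, but the labels tie them to nothing, and with 2 shared numbers the deviations of same-numbered libraries correlated at -0.001 and 0.025. Deviations of 2 E8 libraries from their mean are mirror images, so these values are not separate checks and cannot decide whether libraries were paired. The replicate block changed no call among the members, and among the pathway genes it ended those of ORAI3, ITPR2, ATP2B1, FKBP1A, CSNK1D and EGR2. AKIT replicate 3 had no E8 library of its number in the fit, so under the block it added nothing to the difference. The block thus gave the same differences as leaving out AKIT replicate 3 (-1.4138 for RCAN2 in both). It is not a separate check of their size. Of 292 values of members and named pathway genes under alternatives, 242 kept direction and call, 42 lost the call, 2 gained it and 6 changed sign. Depth limits NFATC2, with 8 to 21 reads per library.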
